A study of Mus musculus with 16 samples.

Results

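Laminins are the cross-shaped glycoproteins of basement membranes, and the genes of their chains were followed here through cultured mouse muscle cells. The set was given by name as Lama1, Lama2, Lama3, Lama4, Lama5, Lamb1, Lamb2, Lamb3 and Lamc1, which is 9 of the 35613 genes in the data. Of these 9, 8 were among the 15533 genes that passed a filter on low counts and were tested, and Lama3 did not pass it. Every cell carried Pax7-nGFP, in which GFP in the nucleus marks expression of Pax7, a transcription factor of muscle stem cells. RNA from 16 libraries was sequenced, and 15 of them formed 5 groups of 3 biological replicates, derived from lines of male mice aged 16 weeks. Bulk (unsorted) myoblasts were harvested at passage 3 from a medium with serum and basic FGF, and GFP+ myoblasts were sorted from that medium at passage 5 to 6. Differentiated myoblasts spent 3 days in a medium low in serum and were taken at passage 4 to 5. The cultures the labels call MPC, which the labels do not spell out, began as myoblasts for 2 to 3 passages. They then spent 5 to 6 passages in another base medium with basic FGF and 3 agents. These were forskolin at 5 µM, which raises cAMP, RepSox at 5 µM, which blocks TGF-beta receptor kinase activity, and an agent labelled CHIR9901 at 3 µM. They were taken unsorted (bulk MPC) or sorted for GFP (GFP+ MPC). A last GFP+ MPC library, with no replicate, came from a female mouse aged 39 weeks, from GFP- myoblasts of passage 8 kept for 2 passages in the MPC medium.

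A laminin is a trimer of 1 alpha, 1 beta and 1 gamma chain, which is assembled inside the cell and secreted. The alpha chain ends in globular domains that bind integrins and glycosylated dystroglycan at the cell surface, and the short arms of the chains link laminins into a sheet. In muscle this sheet surrounds each fibre and covers the stem cells that lie beneath it. Lama2 encodes the main alpha chain of that sheet, and its loss causes a congenital muscular dystrophy. Lamb2 encodes the beta chain that is concentrated at the neuromuscular synapse.

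The libraries held 19300307 to 29127963 estimated counts, and levels are given as CPM, the count of a gene scaled to the size of its library. Pax7 was at 829 to 1005 CPM in GFP+ myoblasts, 596 to 867 in GFP+ MPC and 528 to 658 in bulk myoblasts. It was at 57.2 to 137 CPM in bulk MPC and 25.4 to 65.1 in differentiated myoblasts. Myh3, the embryonic myosin heavy chain of newly formed muscle fibres, was at 23205 to 28980 CPM in differentiated myoblasts, 17711 to 22864 in bulk MPC and 6379 to 9147 in bulk myoblasts. In the sorted libraries of both cultures Myh3 lay between 63.7 and 427 CPM. Myog, which encodes myogenin, did not separate the unsorted groups. It was at 969 to 1289 CPM in bulk myoblasts, 978 to 1033 in differentiated myoblasts and 837 to 1065 in bulk MPC. The sorted cells had less, with 32.7 to 148 CPM in GFP+ myoblasts and 50.3 to 144 in GFP+ MPC. Among 8 markers of fibroblasts and fibro-adipogenic cells, the summed level of bulk MPC replicate 2 was 147 CPM, against 1.54 and 4.1 in replicates 1 and 3. Bulk myoblast replicates 1 to 3 had 26, 37 and 132 CPM of these markers, GFP+ myoblasts 11.8 to 22.1, differentiated myoblasts 5.12 to 33.9 and GFP+ MPC 3 to 13.2, with Lum at 0 in these 4 groups. None of the 8 was at 0 in all 3 bulk MPC libraries. Values without bulk MPC replicate 2 are given where leaving it out changed a call or a direction or moved a value by more than 1.5 times. For the gene lists below, the share and median of all genes in that fit are not given. Sorted RNA was prepared with another kit than unsorted RNA, so kit and sort cannot be told apart between sorted and bulk cells. GFP+ and bulk myoblasts also differ in passage, which cannot be told apart from these either. GFP+ and bulk MPC do not differ in passage by their labels. Between MPC and myoblast cultures the base medium, the 3 agents and the passages cannot be told apart either. Differentiated myoblasts were taken at passage 4 to 5 and bulk myoblasts at passage 3. Passage and the 3 days in the medium low in serum cannot be told apart between these groups.

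Laminin genes changed in every comparison, and the genes that changed differed by chain. All values below are log2 fold changes ± standard error from the quasi-likelihood test of edgeR, with Benjamini-Hochberg adjustment over all tested genes and a threshold of 0.05. In GFP+ MPC against GFP+ myoblasts, 3 of the 8 tested members rose and 1 fell, where 48.6% of all tested genes passed (26% higher, 22.7% lower). Bulk MPC against bulk myoblasts had 3 higher and 3 lower members, with 58.5% of all genes passing (28.4% higher, 30.1% lower). Differentiated against bulk myoblasts had 3 higher and 2 lower, with 54.2% passing (25.6% higher, 28.6% lower). In bulk MPC against differentiated myoblasts only Lama4 passed, and it was higher, where 43.8% of all genes passed (24.4% higher, 19.4% lower). Lamb1 passed there too, and was lower, without bulk MPC replicate 2. Lama2 passed in a fit of only the compared groups (-0.40, adjusted p = 0.0209) and without GFP+ myoblast replicate 3 (adjusted p = 0.0421), and Lamb2 without bulk MPC replicate 3 (-0.55, adjusted p = 0.034). In GFP+ MPC against bulk MPC, 2 members were higher and 1 was lower, beside 66.6% of all genes (32.9% higher, 33.7% lower). GFP+ against bulk myoblasts had 2 lower members, with 30% of all genes passing (12.7% higher, 17.4% lower). The median log2 fold change of the tested members ran from -0.24 in that last comparison to 0.59 in GFP+ MPC against GFP+ myoblasts, where the medians of all tested genes were -0.02 and 0.09. With 8 members the counts do not set the laminins apart from other genes.

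**Figure D1:**
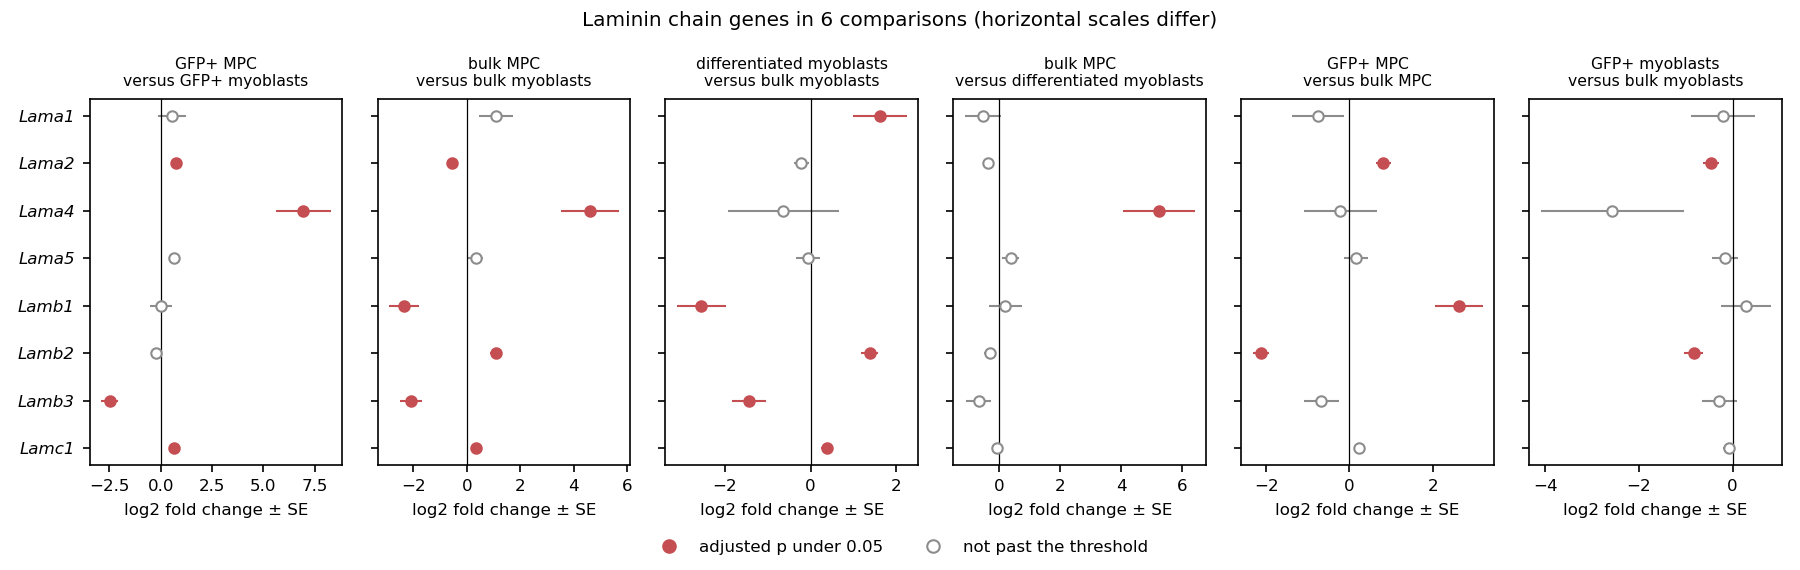
Log2 fold change with its standard error (horizontal axis, with a scale of its own in each panel) for the 8 tested laminin genes in 6 comparisons of 3 against 3 libraries; filled red points passed the threshold. Lamb1 lies at -2.35 and -2.54 and Lamb2 at 1.08 and 1.38 in bulk MPC and in differentiated myoblasts, each against bulk myoblasts, and Lama4 lies at 6.95, 4.60 and 5.24 where an MPC culture is compared with cells outside the MPC medium.

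Lama2 was highest in GFP+ MPC. Its level was 252, 182 and 184 CPM in GFP+ MPC replicates 1 to 3 and 142, 137 and 91.5 CPM in GFP+ myoblasts. These groups did not overlap, and Lama2 rose by 0.73 ± 0.17 (adjusted p = 0.0028). In the bulk cultures the order was the reverse: 102, 123 and 123 CPM in bulk MPC and 185, 165 and 166 CPM in bulk myoblasts, again without overlap, and Lama2 fell by 0.56 ± 0.17 (adjusted p = 0.0111). In such bulk samples, fewer cells of a type and less RNA per cell cannot be told apart. Differentiated myoblasts, at 151, 133 and 161 CPM, lay between and differed from bulk myoblasts by -0.21 ± 0.17, short of the threshold (adjusted p = 0.305). GFP+ MPC exceeded bulk MPC by 0.82 ± 0.17 (adjusted p = 0.000692). GFP+ myoblasts lay below bulk myoblasts by 0.47 ± 0.17 (adjusted p = 0.0475), a call that was lost with a replicate block (adjusted p = 0.0529) and in 14 of 21 alternatives in all. Those 14 included leaving out bulk myoblast replicate 1, 2 or 3, GFP+ myoblast replicate 3, differentiated replicate 1, 2 or 3, or bulk MPC replicate 2 or 3, and the highest adjusted p, 0.172, came without GFP+ myoblast replicate 3. In the order of the 5 group means, GFP+ MPC overlapped bulk myoblasts, which lay clear of differentiated myoblasts, and the remaining neighbours overlapped.

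Lama4, the alpha chain of blood vessel basement membranes, which is also found at the neuromuscular synapse, was near the limit of detection outside the MPC medium. It was at 7.2, 19.2 and 3.78 CPM in GFP+ MPC and at 0.0312, 0.152 and 0.0476 CPM in GFP+ myoblasts, where it had 1, 4 and 1 counts. The groups lay far apart and the difference was 6.95 ± 1.34 (adjusted p = 0.000887). With so few counts in GFP+ myoblasts its size depends on single libraries, and it was 7.85 without GFP+ myoblast replicate 2, 6.08 without GFP+ MPC replicate 2 and 5.95 with length-scaled counts. Bulk MPC replicates 1 to 3 were at 1.07, 30.8 and 3.1 CPM, bulk myoblasts at 0.368, 0.287 and 0.751 CPM and differentiated myoblasts at 0.246, 0.225 and 0.449 CPM. All 3 bulk MPC libraries lay above the other unsorted libraries, and replicate 2 stood far above the other two. Lama4 was higher in bulk MPC than in bulk myoblasts by 4.60 ± 1.08 (adjusted p = 0.00259) and than in differentiated myoblasts by 5.24 ± 1.17 (adjusted p = 0.00296). Without bulk MPC replicate 2 these values were 2.10 (adjusted p = 0.023) and 2.74 (adjusted p = 0.0148), and with a replicate block 3.62 and 4.43. With length-scaled counts the second was 3.79. GFP+ and bulk MPC overlapped and differed by -0.22 ± 0.88 (adjusted p = 0.837), but without bulk MPC replicate 2 GFP+ MPC was higher by 2.28 (adjusted p = 0.011). GFP+ and bulk myoblasts differed by -2.57 ± 1.53 (adjusted p = 0.222), and by -2.56 (adjusted p = 0.0496) in the fit without bulk MPC replicate 2. In bulk MPC replicate 2 the fibroblast markers Dcn, at 31.5 CPM, and Col1a1, at 89.5 CPM, were also above their levels in replicates 1 and 3, which were 0.0467 and 0.186 CPM for Dcn and 0.0467 and 2.24 CPM for Col1a1. In GFP+ MPC the same list of 8 markers summed to 6.43, 13.2 and 3 CPM, with Lum at 0 in each library, and Lama4 was highest in the library where this sum was highest. Across groups the sum did not follow Lama4. Bulk myoblast replicates 1 to 3 had higher sums, 26, 37 and 132 CPM, with Lama4 at 0.368, 0.287 and 0.751 CPM, below every GFP+ MPC library. Endothelial markers, 7 in all, summed to 1.54 to 3.21 CPM in the replicated libraries and to 1.68 to 3.16 CPM in GFP+ MPC, with Emcn at 0 there. The 8 markers of pericytes and smooth muscle summed to 1372 to 1616 CPM in GFP+ MPC and 409 to 782 CPM in GFP+ myoblasts. Their sums were 480 to 754 CPM in bulk MPC and 1319 to 1708 CPM in bulk myoblasts, and none was at 0 in these groups. These 8 did not move together. Pdgfrb, Notch3, Abcc9, Kcnj8 and Myh11 were higher in every GFP+ MPC than in every GFP+ myoblast library. Rgs5 was lower, and Cspg4 and Acta2 overlapped. In bulk MPC all except Abcc9 were highest in replicate 2, and Pdgfrb was at 4.21, 69.2 and 13 CPM in replicates 1 to 3. The part of other cell types in the Lama4 level was not tested.

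Lama5, a broadly expressed alpha chain, differed past the threshold in no comparison. It was at 177, 152 and 221 CPM in bulk myoblasts, 139, 114 and 238 in GFP+ myoblasts and 177, 181 and 172 in differentiated myoblasts. Bulk MPC had 217, 278 and 200 CPM and GFP+ MPC 230, 371 and 175 CPM. The ranges of all neighbours in the order of group means overlapped. The largest difference was between GFP+ MPC and GFP+ myoblasts, 0.66 ± 0.28 (95% interval 0.03 to 1.29, adjusted p = 0.0692). It passed in 3 alternatives: with length-scaled counts (0.79, adjusted p = 0.0225), leaving out GFP+ myoblast replicate 3 (1.02, adjusted p = 0.0076), or leaving out GFP+ MPC replicate 3 (0.87, adjusted p = 0.023).

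The other 2 alpha chains were near the limit of detection. Lama1, a chain of early embryonic basement membranes, had at most 16 counts in any replicated library. Its counts were 16, 10 and 15 in differentiated myoblasts and 14, 3 and 2 in bulk myoblasts, or 0.787, 0.562 and 0.843 against 0.469, 0.144 and 0.0715 CPM. It was higher in differentiated myoblasts by 1.62 ± 0.62 (adjusted p = 0.0399), a difference of 2.76 without bulk myoblast replicate 1. It lost the call in 7 of 21 alternatives, which left out bulk myoblast replicate 2 or 3, GFP+ myoblast replicate 1 or any 1 differentiated replicate, or used no low-count filter (adjusted p at most 0.134). Neighbouring groups overlapped throughout. Lama3, the alpha chain of the epithelial laminin that anchors skin, had 16 counts over the 3 bulk myoblast libraries, 17 over GFP+ myoblasts, 6 over differentiated myoblasts and 4 over GFP+ MPC. Bulk MPC had none, which allows up to 0.0514 CPM over the group. The observed level of bulk myoblasts, 0.204 CPM over the group, was 3.96-fold this limit. The limit covers counting error in bulk MPC only, and not that of the 16 counts in bulk myoblasts.

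**Figure D2:**
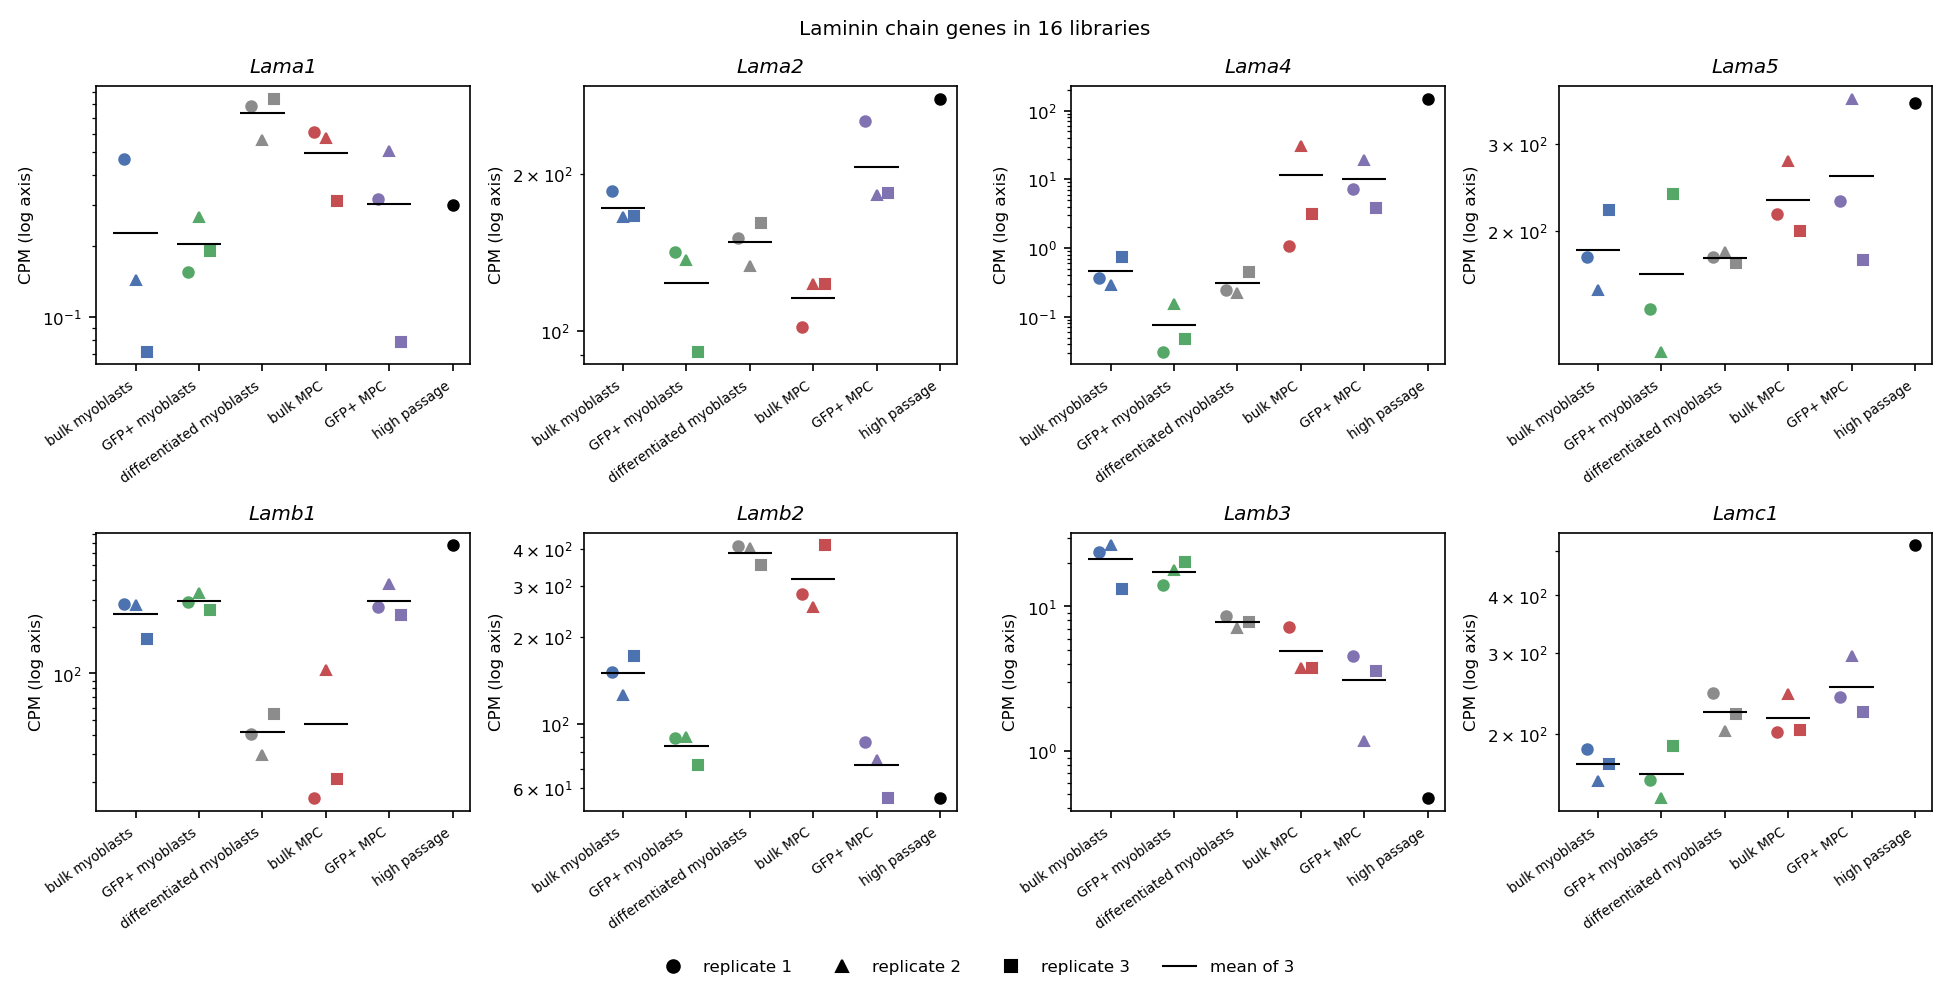
CPM on log axes in each library for the 8 tested laminin genes; circles, triangles and squares are replicates 1, 2 and 3, lines are means of 3, and the black point is the high-passage library. In Lamb1 the differentiated and bulk MPC libraries lie at 15.6 to 106 CPM, below all others, whereas in Lamb2 the same libraries lie at 252 to 413 CPM, above all others.

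The beta chains showed the clearest contrast among the laminins. Lamb1, the widespread beta chain of embryonic and adult tissue, was at 281, 278 and 168 CPM in bulk myoblasts, 290, 332 and 259 in GFP+ myoblasts and 267, 376 and 240 in GFP+ MPC. It was at 40.7, 29.6 and 54.5 CPM in differentiated myoblasts and 15.6, 106 and 20.7 in bulk MPC. The first 3 groups overlapped each other and lay clear of the last 2. Lamb1 fell by 2.54 ± 0.57 in differentiated myoblasts (adjusted p = 0.00204) and by 2.35 ± 0.56 in bulk MPC (adjusted p = 0.00291), both against bulk myoblasts, and it was 2.63 ± 0.57 higher in GFP+ than in bulk MPC (adjusted p = 0.00105). Without bulk MPC replicate 2, the latter 2 values were -3.74 and 4.02. Between GFP+ MPC and GFP+ myoblasts the difference was 0.00 ± 0.53, with a 95% interval of -1.18 to 1.19 (adjusted p = 0.998). Bulk MPC and differentiated myoblasts differed by 0.20 ± 0.54 (adjusted p = 0.795), but by -1.20 without bulk MPC replicate 2 (adjusted p = 0.00794).

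Lamb2 ran the other way. It was at 412, 404 and 352 CPM in differentiated myoblasts, 280, 252 and 413 in bulk MPC and 151, 126 and 171 in bulk myoblasts. The sorted cells had least, with 89.4, 90.3 and 72.3 CPM in GFP+ myoblasts and 86.6, 74.9 and 55.4 in GFP+ MPC. Bulk myoblasts thus lay between 2 upper and 2 lower groups and overlapped none of them. Lamb2 rose by 1.38 ± 0.20 in differentiated myoblasts (adjusted p = 8.23e-05) and by 1.08 ± 0.20 in bulk MPC (adjusted p = 0.000454). It was lower in GFP+ MPC than in bulk MPC by 2.12 ± 0.20 (adjusted p = 9.88e-07) and lower in GFP+ than in bulk myoblasts by 0.83 ± 0.20 (adjusted p = 0.00756). The 2 sorted groups differed by -0.22 ± 0.20 (adjusted p = 0.384), with a 95% interval of -0.66 to 0.22. The 5 groups had the same order by mean for Lamb2 as for Myh3 except that the 2 sorted groups changed places, and the part of fibre formation in the laminin levels was not tested.

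Per length, Lamb2 went from the lesser to the main beta chain. Deposited TPM values, which scale counts by transcript length and library size, were summed per gene and allow genes of different length to be compared. By this measure Lamb2 held 35.6%, 30.7% and 51.7% of the summed beta chain TPM in bulk myoblasts. It held 26.2%, 22.2% and 22.4% in GFP+ myoblasts and 25.8%, 21.9% and 27.6% in GFP+ MPC. In differentiated myoblasts it held 88.4%, 90.9% and 84%, and in bulk MPC 91.6%, 71% and 90.9%. Lamb1 was the larger beta chain in all 6 sorted libraries and the smaller in all 6 libraries of differentiated myoblasts and bulk MPC. The bulk myoblast libraries were split by TPM, with Lamb1 at 58%, 60.8% and 44.3%. With counts per kilobase of a single effective length per gene, Lamb1 held 62.9%, 65.4% and 49.7% there. By that measure it was the larger in each library, narrowly so in replicate 3, where Lamb2 held 45.3%. The group means for Lamb2 were 39.3% ± 11 (SD, n = 3) in bulk myoblasts, 23.6% ± 2.25 in GFP+ myoblasts, 87.8% ± 3.48 in differentiated myoblasts, 84.5% ± 11.7 in bulk MPC and 25.1% ± 2.88 in GFP+ MPC. The shares were compared by their ranges and were not tested.

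**Figure D3:**
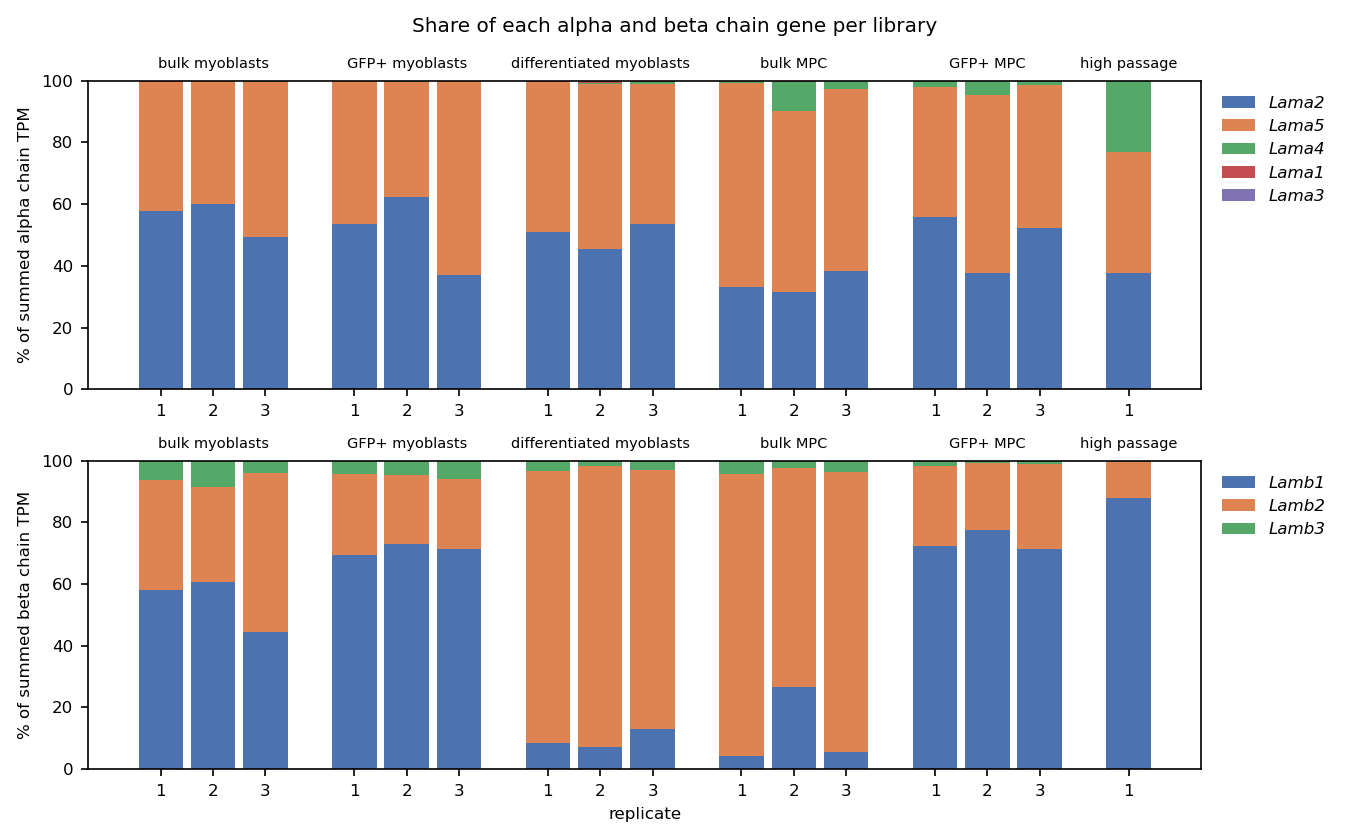
Stacked bars of the share of each alpha chain gene (upper panel) and beta chain gene (lower panel) in the summed TPM of its class, in percent, for each of the 16 libraries. Lamb2 fills 71% to 91.6% of the beta chain bar in differentiated myoblasts and bulk MPC and 21.9% to 27.6% in the sorted replicated libraries, while Lama2 and Lama5 fill most of every alpha chain bar.

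Because Lamb1 and Lamb2 moved in opposite directions, their upstream sequences are shown side by side. They are the parts of the RefSeq promoter windows (GRCm38.p6, 250 bases before to 50 after a start) that precede the first annotated base of the gene. The capitals mark the E-box, CANNTG on either strand, which is the motif bound by Myod1, myogenin and many other helix-loop-helix factors.
Lamb1, chr12:31265043-31265145, plus strand: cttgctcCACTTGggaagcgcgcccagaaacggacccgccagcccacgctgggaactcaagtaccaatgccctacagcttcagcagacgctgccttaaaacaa
Lamb2, chr9:108479612-108479846, plus strand: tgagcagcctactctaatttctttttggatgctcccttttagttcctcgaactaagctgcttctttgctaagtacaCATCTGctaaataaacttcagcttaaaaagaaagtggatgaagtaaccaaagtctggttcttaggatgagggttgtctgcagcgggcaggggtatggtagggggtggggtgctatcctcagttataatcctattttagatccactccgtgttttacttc
Each stretch holds 1 E-box, and the whole 300-base windows hold 2 for Lamb1 and 1 for Lamb2. An E-box is present in 72.3% of the 32851 promoter windows of this length, so the match is common. The GC box, GGGCGG, occurs 2 times in the window of Lamb1 and not in that of Lamb2, and 35.7% of all windows hold it. The cAMP response element TGACGTCA, in 1.79% of windows, is in neither, and its shorter core TGACG, in 20.8%, occurs once for Lamb2. Neither window holds the TCF motif CTTTGAT (3.73% of windows), the MCAT motif CATTCC (14.7%), the SMAD palindrome GTCTAGAC (0.213%) or the MEF2 motif (3.19%). Both strands were searched, the core is part of the full element, and a match or its lack says nothing of what binds there.

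Lamb3, the beta chain of the epithelial laminin, was highest in the myoblast groups. It was at 23.8, 26.5 and 13.2 CPM in bulk myoblasts. GFP+ myoblasts had 14, 18 and 20.3 CPM, overlapped bulk myoblasts and did not pass (-0.28 ± 0.38, adjusted p = 0.617). Lamb3 was at 8.66, 7.08 and 7.81 CPM in differentiated myoblasts, 7.24, 3.74 and 3.73 in bulk MPC and 4.53, 1.18 and 3.59 in GFP+ MPC. These 3 groups lay below every myoblast library. Lamb3 fell by 1.43 ± 0.40 in differentiated myoblasts (adjusted p = 0.00825) and by 2.10 ± 0.41 in bulk MPC (adjusted p = 0.000677), and in GFP+ MPC it fell by 2.49 ± 0.42 against GFP+ myoblasts (adjusted p = 0.000311). With length-scaled counts the fall in bulk MPC was -0.96 (adjusted p = 0.0365), and GFP+ MPC was then below bulk MPC (-1.56, adjusted p = 0.00244), whereas the counts as deposited gave -0.67 ± 0.41 (adjusted p = 0.171). The 6 epithelial markers summed to 8.37 to 16.1 CPM in bulk myoblasts, 0.645 to 0.749 in GFP+ myoblasts, 71.3 to 103 in differentiated myoblasts, 44.9 to 66.6 in bulk MPC and 1.68 to 2.65 in GFP+ MPC. Krt5 and Krt14 were at 0 in the last 3 groups. Nearly all of the sum in differentiated myoblasts and bulk MPC was 1 gene, Trp63, at 70.3 to 102 and 44.3 to 65.6 CPM, and the part of epithelial cells in the Lamb3 level was not tested.

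The transcripts of Lamb3 did not fall alike. The 2 coding transcripts Lamb3-201 and Lamb3-202, which start within 0.25 kb of each other, had 596, 514 and 273 estimated counts in bulk myoblasts and 413, 422 and 402 in GFP+ myoblasts. They had 103, 68 and 92 counts in differentiated myoblasts, 4, 0 and 0 in bulk MPC and 63, 0 and 29 in GFP+ MPC. Lamb3-209, whose first exon lies 94.3 kb upstream of that of Lamb3-201 and which has 5 exons of its own, had 112, 36 and 96 counts in bulk myoblasts and 144, 69 and 51 in bulk MPC. Its share of Lamb3 counts was 6.51% to 26.1% in bulk myoblasts and 84.3% to 93.1% in bulk MPC, with no overlap. Its share of Lamb3 TPM was 4.52% to 22.6% and 17.6% to 45.2% in the same groups, which did overlap. It shares 80.3% of its bases with Lamb3-201, so the split is an estimate of the authors' quantification and was not tested.

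**Figure D4:**
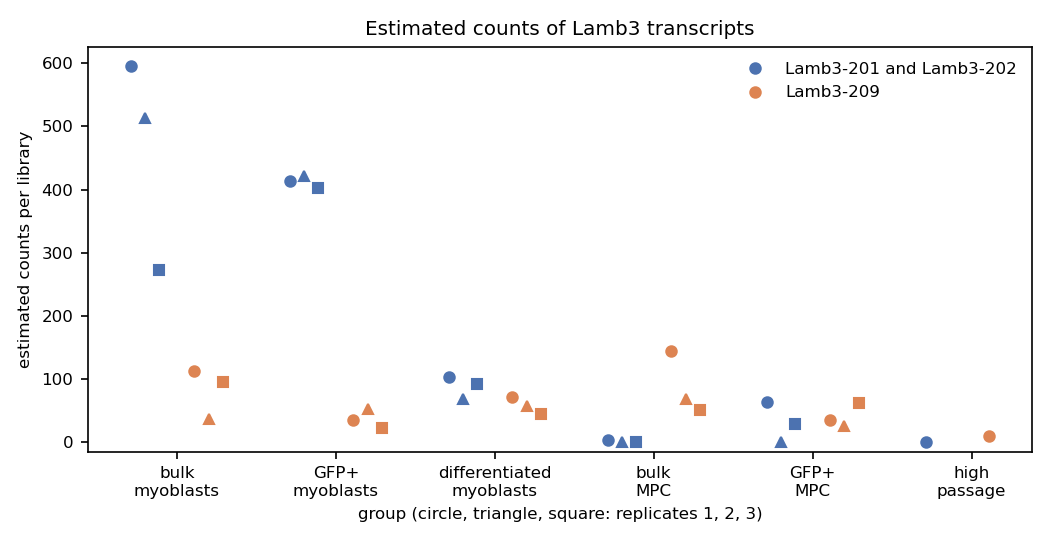
Estimated counts per library (vertical axis) of the Lamb3 transcripts that start together (blue) and of the long transcript Lamb3-209 (orange) in each group; the axis is linear. Lamb3-201 and Lamb3-202 together have at most 4 counts in bulk MPC and at least 273 in every bulk and GFP+ myoblast library, whereas Lamb3-209 has 51 to 144 counts in bulk MPC and 36 to 112 in bulk myoblasts.

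Lamc1, the gamma chain of nearly all muscle laminins, varied least among the tested members, with an SD of 0.28 on the log2 CPM scale over the 15 replicated libraries. It was at 186, 158 and 172 CPM in bulk myoblasts and 159, 145 and 188 in GFP+ myoblasts. It was at 246, 203 and 221 CPM in differentiated myoblasts, 202, 244 and 204 in bulk MPC and 241, 296 and 223 in GFP+ MPC. The 3 latter groups overlapped each other and lay above every myoblast library. Lamc1 rose by 0.63 ± 0.13 in GFP+ MPC against GFP+ myoblasts (adjusted p = 0.00163). Its rises against bulk myoblasts, 0.38 ± 0.13 in differentiated myoblasts (adjusted p = 0.0286) and 0.33 ± 0.13 in bulk MPC (adjusted p = 0.0466), were less secure. The former was lost in 5 of 21 alternatives, namely with no low-count filter or leaving out bulk myoblast replicate 2 or 3 or differentiated replicate 1 or 3 (adjusted p at most 0.115). The latter was lost in 12, namely with no low-count filter, with a replicate block (adjusted p = 0.0697) or leaving out bulk myoblast replicate 2 or 3, GFP+ myoblast replicate 1, GFP+ MPC replicate 1, or any 1 replicate of bulk MPC or differentiated myoblasts, with an adjusted p of at most 0.178 (without bulk MPC replicate 2).

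Lamc3, another gamma chain gene, is no member of the set and is given for context. It stayed below 3 CPM in every library, and its highest group was differentiated myoblasts, at 1.57, 2.47 and 1.97 CPM.

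Lama2 and Lama5 together supplied most of the alpha chain TPM in every library. Lama2 held 57.7%, 60.2% and 49.2% of it in bulk myoblasts and 33%, 31.6% and 38.3% in bulk MPC, where Lama5 held 66.4%, 58.6% and 59%. By TPM, bulk MPC was the one group in which Lama5 exceeded Lama2 in all 3 libraries. In differentiated myoblasts the means were 50% ± 4.05 for Lama2 and 49.2% ± 3.92 for Lama5, and in GFP+ MPC they were 48.6% ± 9.54 and 48.7% ± 7.92. Lama4 held 1.88%, 4.56% and 1.36% in GFP+ MPC, 0.519%, 9.46% and 2.6% in bulk MPC and at most 0.639% in any other replicated library. The Lama5 share rests in part on short non-coding transcripts: the coding transcript Lama5-201 held 96.8% to 98.6% of Lama5 counts but 49.7% to 70.7% of its TPM in the replicated libraries. With counts per kilobase of a single effective length per gene, Lama5 held 51.4% and Lama2 43.3% on average in bulk MPC, and Lama2 was then the larger in replicate 3 (49.6% against 48.5%).

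Most other members were represented by a single transcript in counts. Lama4-201 held 99.5% to 99.9% of Lama4 counts in GFP+ MPC, Lamb2-201 held 95.4% to 98.5% of Lamb2 counts in all replicated groups, and Lamc1-201 held 97% to 99.2%. By TPM Lamb2-201 held 46.3% to 74.9% of Lamb2 and Lamc1-201 64.3% to 88.5% of Lamc1 in these groups. The Lamb2 share of beta chain TPM thus rests in part on its other transcripts. Of Lamb1 counts, Lamb1-205 took 16.8% to 28.9% in GFP+ myoblasts and 2.14% to 17.6% in GFP+ MPC, and 21.3% to 44.5% in bulk myoblasts and 0.00432% to 39.2% in bulk MPC. Both pairs of groups overlapped. Lamb1-205 has 59 bases of its own, and it shares 5498 bases with Lamb1-201, which has 5784. Lama2-208, which has 22 exons where the full-length Lama2-201 has 65, took 8.94% to 12.1% of Lama2 counts in GFP+ myoblasts and 11% to 16.8% in GFP+ MPC, which overlapped. All of its bases lie within Lama2-201, so reads cannot be told apart with certainty.

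Laminin receptors moved in both directions. Of 14 receptor genes tested, 6 rose and 5 fell in GFP+ MPC against GFP+ myoblasts, with a median of 0.26 against 0.09 for all genes, of which 48.6% passed. Bcam, a receptor of Lama5, rose by 4.09 ± 0.42 to 277 ± 148 CPM, and Itga1, an integrin alpha chain that binds collagen and laminin, rose by 3.82 ± 0.70. Itgb4, the integrin beta chain of hemidesmosomes, fell by 6.29 ± 0.72 from 259 ± 96.8 to 3.36 ± 3.76 CPM (-7.73 without GFP+ MPC replicate 1), and Itga3, an integrin alpha chain for Lama3 and Lama5 laminins, fell by 4.38 ± 0.22. In bulk MPC against bulk myoblasts 4 rose and 7 fell (median -0.21, against -0.01 for all genes, of which 58.5% passed). Without bulk MPC replicate 2, 4 rose and 6 fell, with a median of -0.45. Bcam rose by 3.82 ± 0.42 and Itga7, the main laminin integrin of muscle fibres, by 1.04 ± 0.15, whereas Itga3 fell by 4.95 ± 0.24 and Itga6 by 3.90 ± 0.22.

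Differentiated myoblasts had 3 receptor genes higher and 8 lower than bulk myoblasts (median -0.57, against -0.03 for all genes, of which 54.2% passed). Dag1, which encodes dystroglycan, rose there by 1.65 ± 0.21 to 1678 ± 81.9 CPM, and Bcam by 2.60 ± 0.39. Itgb4 fell by 3.58 ± 0.62 and the hyaluronan receptor Cd44 by 2.51 ± 0.20. GFP+ MPC against bulk MPC had 8 higher and 5 lower, where 66.6% of all genes passed, and GFP+ against bulk myoblasts 1 higher and 3 lower, where 30% passed. Bcam (-1.79 ± 0.39) and Dag1 (-1.46 ± 0.21) were 2 of those 3.

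Partners of laminin in the basement membrane were examined in the same way. Of 14 tested genes among 18, 8 fell and 1 rose both in bulk MPC and in differentiated myoblasts, each against bulk myoblasts, with medians of -1.44 and -2.15. The medians of all genes were -0.01 and -0.03, and 58.5% and 54.2% of all genes passed. Nid1, the nidogen that binds the laminin gamma chain to collagen IV, fell by 2.14 ± 0.64 in bulk MPC, and by 3.66 without bulk MPC replicate 2. Col15a1, a collagen of the zone around basement membranes, rose by 3.38 ± 0.92 in bulk MPC and by 10.38 ± 1.28 in GFP+ MPC against GFP+ myoblasts, where it went from 1.06 ± 0.905 to 1514 ± 242 CPM. The former value was 4.42 without bulk myoblast replicate 3 and 2.60 without bulk MPC replicate 2, and the latter was 11.28 without GFP+ myoblast replicate 1. In differentiated myoblasts Hspg2, which encodes perlecan, rose by 0.68 ± 0.16 and Fbln1, a fibulin, fell by 4.02 ± 0.38. GFP+ MPC had 8 partners higher and 1 lower than bulk MPC, with a median of 1.53 (all genes -0.01, with 66.6% passing), and Col4a1, a collagen IV chain, was 2.59 ± 0.47 higher there (3.58 without bulk MPC replicate 2). Without bulk MPC replicate 2 the counts were 1 higher and 10 lower in bulk MPC against bulk myoblasts (median -2.27) and 9 higher and 0 lower in GFP+ against bulk MPC (median 2.21). The share and median of all genes in that fit are not given, so these shifts have no background beside them.

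Of the enzymes that build the laminin-binding sugar of dystroglycan, 17 were tested. In differentiated against bulk myoblasts 9 were higher and 1 was lower (median 0.44, against -0.03 for all genes, of which 54.2% passed), and B3galnt2, which adds a sugar of the core chain, rose by 1.02 ± 0.15. In bulk MPC against bulk myoblasts 4 rose and 4 fell, where 58.5% of all genes passed. GFP+ MPC against GFP+ myoblasts had 5 higher and 4 lower (median -0.00, against 0.09 for all genes, of which 48.6% passed). Genes with laminin-type domains, 10 tested of 14, had 3 higher and 4 lower in both MPC comparisons with myoblasts. Without bulk MPC replicate 2 the unsorted comparison had 2 higher and 4 lower of 11 tested, and its median went from 0.09 to -0.02. Netrin genes went both ways. Ntn1, a netrin, fell by 2.54 ± 0.28 in GFP+ MPC, and Ntn4, a netrin of basement membranes, fell by 3.92 ± 0.40 in bulk MPC. Ntn5, another netrin, rose by 8.40 ± 1.09 in GFP+ MPC, from 0.023 ± 0.0202 to 10.3 ± 4.76 CPM. In bulk MPC Ntn5 rose by 3.98 ± 0.77, and by 5.78 without bulk myoblast replicate 3.

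The difference between GFP+ and bulk cells was itself compared between the MPC and the myoblast culture. GFP+ and bulk myoblasts also differ in passage, which GFP+ and bulk MPC do not by their labels, so sort and passage cannot be told apart in this contrast. It passed for 3 of the 8 tested members, 2 higher and 1 lower, beside 37.1% of all genes (20.3% higher, 16.8% lower). The GFP+ minus bulk difference of Lama2 was larger in the MPC culture by 1.30 ± 0.24 (adjusted p = 0.00105), going from lower in GFP+ myoblasts to higher in GFP+ MPC. That of Lamb2 was more negative by 1.29 ± 0.28 (adjusted p = 0.00294). That of Lamb1 was larger by 2.35 ± 0.76 (adjusted p = 0.0277), and it was 3.74 without bulk MPC replicate 2. This Lamb1 call was lost without bulk myoblast replicate 1 or 2, GFP+ myoblast replicate 1 or 3, bulk MPC replicate 3 or GFP+ MPC replicate 2 (adjusted p 0.0539 to 0.0597). Lama4 did not pass (2.34 ± 1.77, adjusted p = 0.322), but did without bulk MPC replicate 2, at 4.84 (adjusted p = 0.00486).

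The high-passage GFP+ MPC library had more of several laminins than any replicated library. Lamb1 was at 673 CPM, Lamc1 at 514, Lama2 at 278 and Lama4 at 149 CPM, each above all 15 replicated libraries, and Lama4 was 14.8 times the GFP+ MPC mean. Lamb2, at 55.3 CPM, and Lamb3, at 0.47 CPM, lay below all 15. Lama5, at 363 CPM, and Lama1, at 0.299 CPM, lay within the range of GFP+ MPC, and Lama3 had no counts. Per length, Lama4 held 23% of alpha chain TPM there and Lamb1 87.8% of beta chain TPM. The 8 fibroblast markers summed to 60.9 CPM with none at 0, and Pax7 was at 302 CPM. This library differs from the others in sex, age, passage, starting cells and time in the medium, which cannot be told apart, and it has no replicate to test.

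Genes with patterns most like each member were found by the root mean square (RMS) difference of log2 CPM over the 15 replicated libraries, each gene centred on its mean. For Lamb2, whose own SD on this scale was 1.04, they were Klc4 (0.17) and Atg9a (0.18). Lamb1, with an SD of 1.61, was nearest to Tmeff2 (0.40) and Dpysl2 (0.42). Lamb3 had an SD of 1.23 and was nearest to Klf4 (0.40) and Fam71f1 (0.43). For Lama4, whose SD was 2.52, Bcas1 (0.83) and Sparcl1 (0.93) were nearest. Members that varied less had smaller distances: Lama2 to Zfp523 and Vmn2r90 (both 0.20), and Lama5 to Copg2 (0.21) and Paip2b (0.22). Lamc1 was nearest to Selenoo and Cep68 (both 0.12), and Lama1, at a few counts per library, to Ccdc149 (0.35) and Dhrs7 (0.45). These distances describe a likeness of levels in the same 15 libraries and carry no test.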

How the data were processed

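The deposited files, 1 per library, give for each transcript the authors' estimated counts, TPM, length and effective length (an other unit, in bases), per the file headers. Per the submitters' processing notes, reads were processed with fastp 0.20.0 and kallisto 0.46.1 on GRCm39. The labels describe a stranded poly(A) kit and single-end reads. Transcripts were summed per gene with GENCODE M21, used for names and exon structure only (it is on GRCm38): 120739 of 121798 transcripts matched, and the rest held at most 1.05% of counts. Rounded estimated counts were tested with edgeR 4.0.16 (R 4.3.3): TMM, a low-count filter (minimum count 10, minimum total 15), 1 fit of 15 libraries in 5 groups with 10 residual degrees of freedom, common dispersion 0.047, and 7 contrasts. Standard errors derive from the F statistic. CPM were scaled over all 16 libraries with TMM factors; the deposited TPM served for shares. Where a group had 0 counts, 3 counts over the group set the limit, which covers counting error in that group only. Likeness used log2 CPM with a prior count of 2, protein-coding genes with a symbol, predicted names left out, and 2 genes per member.

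The members, gene lists and alternatives were chosen with earlier results of these data known. The text names all members and Lamc3. Of the genes chosen to check the labels, it gives levels of Pax7, Myh3 and Myog, and not of Myod1, Ckm and Axin2. Per list and comparison, it names genes among the 2 largest changes past the threshold in each direction. Dcn, Col1a1, Lum, Trp63, the values of Pdgfrb and other markers at 0 were picked from the marker lists after their values were seen. Alternatives were DESeq2 1.42.0, RLE factors, no filter, length-scaled counts, a replicate block, only the compared groups, and each library left out. Replicates of the same number share the leading number of their library name across the 5 groups, which the labels do not explain. Their deviations from group means correlated at -0.17 to 0.21 over 30 pairs, above 0.1 in 8, and 31 of 60 checks found a library nearest to its own number. All 3 pairs were above 0.1 for bulk myoblasts with bulk MPC (0.131 to 0.163) and for no other pair of groups. The main fit has no block, and blocked values stand beside the results whose call the block changes. Replicates of each group differed by more than sampling noise. The procedure was tested on simulated counts. Some results are not reported here.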

Additional observations from a re-analysis of the deposited data

Results flagged for a closer look

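The difference between sorted and unsorted cells was not the same in the 2 cultures for 3 laminin genes, by the edgeR test of that difference itself: Lama2 (1.30), Lamb1 (2.35) and Lamb2 (-1.29), as log2 values of the MPC culture minus the myoblast culture.

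In the unreplicated high-passage library, which entered no test, 5 laminin genes lay above all 6 myoblast libraries: Lama2 at 278 CPM, Lama4 at 149 CPM, Lama5 at 363 CPM, Lamb1 at 673 CPM and Lamc1 at 514 CPM. Every GFP+ MPC library also lay above these 6 for Lama4 (3.78 to 19.2 CPM) and Lamc1 (223 to 296 CPM). For Lama5 the high-passage library lay within the range of GFP+ MPC (175 to 371 CPM).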

How the results depend on the processing

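Of 56 results (8 tested members in 7 comparisons), 42 kept their direction or lack of a call in every alternative run. Leaving out bulk MPC replicate 2 changed the sign of 2 of the other results. Neither had passed in the main fit, and both passed then. Lamb1 in bulk MPC against differentiated myoblasts went from 0.20 ± 0.54 to -1.20 (range with 1 library left out -1.20 to 0.62). Lama4 in GFP+ against bulk MPC went from -0.22 ± 0.88 to 2.28 (range -1.09 to 2.28). The number of members past the threshold moved by more than 1.5 times in 3 comparisons. The share of all genes passing in these alternatives is not given here. The moves can thus not be read as particular to the laminins. In differentiated against bulk myoblasts it was 5, but 3 with no low-count filter and 3 to 5 with 1 library left out. In bulk MPC against differentiated myoblasts it was 1, but 2 in a fit of only the compared groups and 1 to 2 with 1 library left out. In GFP+ against bulk myoblasts it was 2, but 1 with RLE factors, no filter, length-scaled counts, a replicate block or only the compared groups, and 1 to 2 with 1 library left out. The replicate block also ended the calls of Lama2 in GFP+ against bulk myoblasts (adjusted p = 0.0529), Lamc1 in bulk MPC against bulk myoblasts (0.0697) and Lamc3 in differentiated against bulk myoblasts (0.0557), and changed no other call of a laminin gene. With counts per kilobase in place of TPM, mean shares of alpha and beta chains moved by more than their SD for Lama1 in GFP+ myoblasts (0.0817%), Lama2 in differentiated myoblasts and bulk MPC (57.8% and 43.3%), Lama5 in these 2 groups and GFP+ MPC (41.7%, 51.4% and 40.7%), Lamb1 in GFP+ myoblasts and GFP+ MPC (74.9% and 80.7%), Lamb2 in the same groups (19.2% and 18.1%) and Lamb3 in bulk MPC (2.01%). Where no cause is visible in how an alternative is built, the cause was not tested. Depth limits Lama1 and Lama3, which had at most 16 counts per replicated library.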
